A study of Mus musculus with 26 samples.

Results

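Permissive cells are cochlear supporting cells that switched on an Atoh1 reporter after Notch signalling was blocked, and here their RNA at 48 h is set against that of control cells. The comparison uses 5 of the 26 samples of the series, taken by their labels, and covers all genes. The 3 permissive samples came from cochleae of mice at postnatal day 1 that were cultured for 48 h with DAPT, an inhibitor of gamma-secretase, the protease that releases the active part of Notch receptors. They were sorted as double positive cells that carried Atoh1-GFP and the red reporter TdT, which Lfng-CreER switches on. The 2 control samples came from cultures of the same age and duration with DMSO, the solvent, and were sorted for TdT without Atoh1-GFP. All 5 therefore carry the Lfng-CreER mark of supporting cells, and all were grown in medium with EGF and FGF. Drug and Atoh1-GFP gate differ together between the groups and cannot be told apart. Levels in 3 nonpermissive samples (DAPT, TdT without Atoh1-GFP, 48 h) are given beside some genes. The 6 RNA samples at 24 h (3 DAPT, 3 DMSO, sorted for Lfng-GFP) share no library with the 48 h samples and serve as further measurements of the same genes. They differ from the 48 h samples in time, sort and library kit, which cannot be told apart.

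In the organ of Corti, hair cells convert sound into electrical signals, and supporting cells hold them in place, clear potassium and glutamate and secrete the matrix around them. Hair cells display Notch ligands, and Notch receptors on neighbouring supporting cells drive Hes and Hey repressors that keep the hair cell factor Atoh1 silent. When Notch signalling is blocked soon after birth, some supporting cells turn on Atoh1 and take up hair cell genes without dividing, a change called transdifferentiation.

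Of 13411 genes tested, 767 rose (5.72%) and 976 fell (7.28%) in permissive cells, 13% in all, at an adjusted p under 0.05 from edgeR's quasi-likelihood test with Benjamini-Hochberg adjustment. The smallest changes called were 1.38 on the log2 scale among rises and 1.26 in size among falls, and 415 of the risen and 281 of the fallen genes differed at least 16-fold. Counts on the risen genes made up 14.2%, 12.1% and 10.6% of the permissive libraries, against 1.71% and 1.5% of the control libraries. Counts on the fallen genes made up 2.83%, 2.28% and 2.43% of the permissive libraries, against 20.6% and 15.8% of the control libraries. These genes were chosen by their difference between the same libraries, so the shares had to separate. In the nonpermissive libraries the risen genes held 1.58% to 2.35% and the fallen genes 10.2% to 16.3% of counts. Median log2 fold change was 4.40 over the risen genes, −3.18 over the fallen genes and 0.06 over all genes tested. In 125 risen genes the control libraries, and in 41 fallen genes the permissive libraries, held no count. For 765 of the risen and 967 of the fallen genes the libraries of the groups did not overlap, which was so for 40.6% of all genes tested. Protein-coding genes made up 716 of the risen and 906 of the fallen genes, 5.86% and 7.41% of 12228 tested. Long non-coding RNAs made up 11 and 25, or 3.38% and 7.69% of 325 tested, against 5.72% and 7.28% of all genes. In sorted bulk samples, fewer cells of a type and less RNA per cell cannot be told apart.

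**Figure D1:**
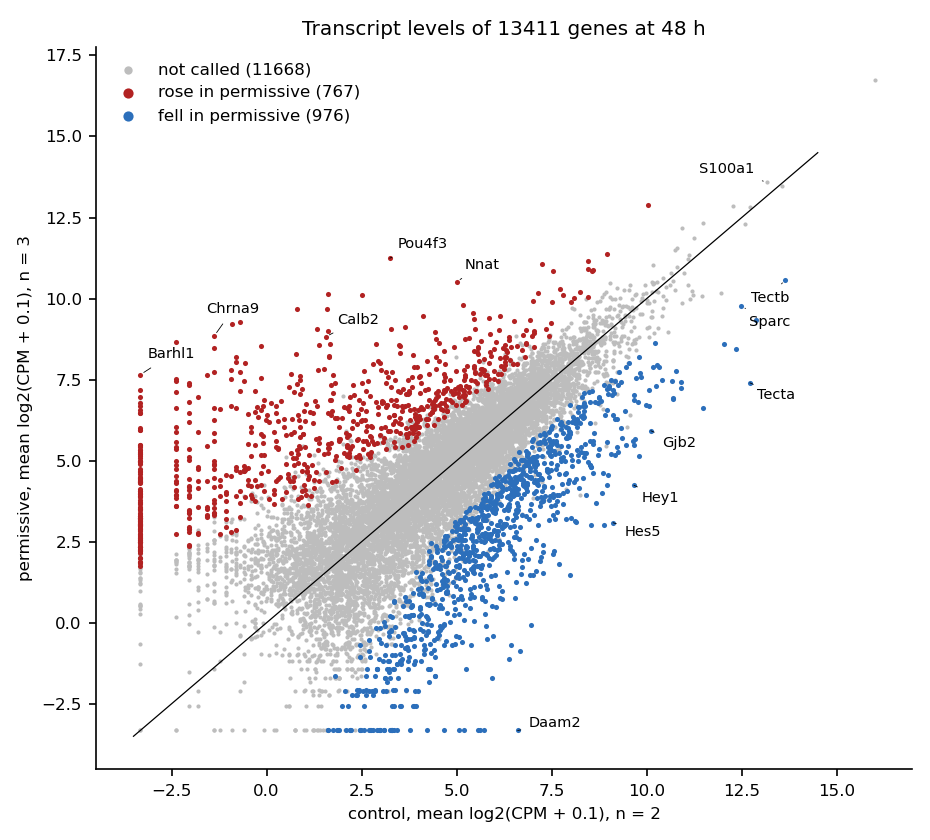
Mean level of each gene in permissive libraries (vertical axis, n = 3) against control libraries (horizontal axis, n = 2), as log2(CPM + 0.1), with 767 genes that rose in red, 976 that fell in blue and the line of equal levels. Barhl1 and Daam2 lie at the edges where 1 group had no count, and S100a1 lies near the line.

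Libraries held 2576473 to 4232069 counts in permissive and 3613245 to 4896374 in control cells, and 15151 to 17061 genes with a count. Mitochondrially encoded genes took 3.16%, 12.7% and 19.7% of counts in the permissive libraries, against 4.11% and 11.5% in the control libraries, so this share spread more within than between the groups. Spearman correlation across genes was 0.873 to 0.881 within the permissive libraries, 0.867 between the control libraries and 0.668 to 0.762 between the groups. The first principal component held 49.6% of the variance and set the permissive libraries apart from all others at 48 h. The second held 17.6% and was positive only in replicate 1 of each group (54.25 permissive, 46.85 control, 22.96 nonpermissive). Replicate 1 also had the lowest mitochondrial share in each group. Control replicate 1 correlated at 0.929 with nonpermissive replicate 1, above its 0.867 with the other control. Whether a replicate number marks a shared source was not tested. With 2 control libraries, many calls lean on both, and fewer genes were called when either was left out. Across all 15 alternative settings, 293 of 767 risen and 366 of 976 fallen genes kept their call. The labels do not say whether replicates are separate animals or cultures, so every p-value rests on the spread among these libraries, and that spread may be technical.

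The sorted populations were checked against their markers. CPM are counts scaled to the library size as adjusted by TMM scaling. Atoh1, the hair cell fate switch, was at 804, 1008 and 635 CPM in permissive libraries, against 3.55 and 2.28 CPM in control libraries. Its reporter defined the gate, so this difference only checks the sort. All 9 hair cell markers listed for this check (Myo7a, Pou4f3, Gfi1, Calb2, Pvalb, Espn, Otof, Tmc1 and Pcdh15) rose in permissive cells, and 9 of 13 supporting cell markers fell. Listed genes were chosen with earlier results of these data known, so these counts are no independent check. Sox2, S100a1 and Fgfr3 were among the supporting cell markers that did not pass. Fgfr3, a receptor of Pillar and Deiters cells, was at 392, 384 and 446 CPM in permissive libraries, against 433 and 484 CPM in control libraries (log2 fold change −0.17 ± 0.38, edgeR adjusted p = 0.835). Lgr5, a Wnt co-receptor of supporting cells with progenitor capacity, was at 275, 178 and 172 CPM, against 303 and 203 CPM (−0.28 ± 0.43, edgeR adjusted p = 0.753). Permissive libraries thus held hair cell transcripts beside Fgfr3 and Lgr5, whose levels overlapped those of the control libraries. These 2 genes were named after their values were seen. Of 19 tested Pillar and Deiters markers, which include both, 9 fell, 1 rose and 15 had a negative log2 fold change.

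Among the Notch ligands, 6 of 7 tested genes rose and 1 fell, with a median log2 fold change of 7.45, or 5.58 with ligands absent from control libraries at their lower bound. Dll1, a ligand of nascent hair cells, was at 103, 83.7 and 93.8 CPM in permissive libraries and had no count in control libraries, at least 132-fold higher (edgeR adjusted p = 0.00109). Jag2, a ligand of hair cells, was at 459, 328 and 319 CPM in permissive libraries, against 5.98 and 16.5 CPM in control libraries, (log2 fold change 5.04 ± 0.90 with its standard error, edgeR adjusted p = 0.00218). Dner, a membrane protein with ligand-like repeats, was at 126, 59.9 and 112 CPM, against 0.935 and 0 CPM (edgeR adjusted p = 0.000213). In each of these ligands all permissive libraries lay above both control libraries. Dll3, an inhibitory ligand, was at least 47.9-fold higher, and Dlk2, a related protein of the Delta family, was 598-fold higher. Jag1, the ligand that supporting cells themselves carry, moved the other way: it was at 45.2, 42.5 and 34.4 CPM in permissive libraries, against 488 and 371 CPM in control libraries (−3.40 ± 0.41, edgeR adjusted p = 0.000211). Jag1 was the 1 ligand with all permissive libraries below both control libraries.

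On the receiving side, 5 of 17 tested genes for Notch receptors, their processing and the Fringe enzymes fell and 1 rose (median −0.54). Notch1 was at 64.8, 77.3 and 51.4 CPM in permissive libraries, against 527 and 755 CPM in control libraries (−3.31 ± 0.57, edgeR adjusted p = 0.0017). Notch3 was at 4.13, 0.335 and 6.47 CPM, against 141 and 154 CPM (−5.34 ± 0.78, edgeR adjusted p = 0.000611). Both receptors were lower in every permissive library than in either control library. Lfng and Mfng, enzymes that add sugars to Notch receptors and shift their choice of ligand, moved in opposite directions. Lfng was at 30.3, 53.6 and 61.5 CPM in permissive libraries, against 237 and 486 CPM in control libraries (−2.90 ± 0.49, edgeR adjusted p = 0.00163). Mfng was at 45, 56.2 and 45.3 CPM, against 1.31 and 0.856 CPM (5.42 ± 0.81, edgeR adjusted p = 0.000668). Rbpj, the DNA-binding partner of active Notch, did not pass (−0.28 ± 0.50, edgeR adjusted p = 0.793).

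Of 6 tested Notch effector and feedback genes 5 fell (median −4.21), and these were the repressors Hes1, Hes5, Hey1, Hey2 and Heyl. Hes5 was at 2.48, 21.1 and 1.62 CPM in permissive libraries, against 298 and 813 CPM in control libraries (−6.05 ± 0.96, edgeR adjusted p = 0.00104). Hey1 was at 34.9, 6.02 and 15.4 CPM, against 1249 and 375 CPM (−5.42 ± 0.74, edgeR adjusted p = 0.00039). Permissive replicate 2 held the highest Hes5 and the lowest Hey1 of the 3, and neither gene overlapped between groups. Hes1 was at 4.13, 2.68 and 1.62 CPM, against 41.9 and 35.9 CPM (−3.74 ± 0.65, edgeR adjusted p = 0.00186). Heyl also fell (−4.68 ± 0.65, edgeR adjusted p = 0.000444). Hey2 fell (−3.07 ± 0.62, edgeR adjusted p = 0.00481, and 0.0655 without control replicate 1). The feedback inhibitor Nrarp was at 18.2, 0 and 0 CPM, against 122 and 12.8 CPM, and did not pass (edgeR adjusted p = 0.13). In the nonpermissive libraries, which saw the same drug, Hes5 was at 2.23, 0 and 1.92 CPM and Hes1 at 15.1, 13.7 and 8.64 CPM.

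The state of the gene starts was read from the deposited ATAC and H3K27ac peak lists of the same cell groups, 2 per group. ATAC marks open chromatin, and H3K27ac, measured by CUT&RUN, marks active promoters and enhancers. Of 767 risen genes, 559 had a start in the RefSeq promoter table, as did 712 of 976 fallen genes and 8787 genes not called. An H3K27ac peak lay within 1 kb of the start of 83.7% and 64.4% of risen genes in the permissive lists, against 32.2% and 38.6% in the control lists. For fallen genes these shares were 52.9% and 46.8% in the permissive lists, against 59.3% and 65.2% in the control lists. For genes not called they were 83.4% and 70.2% in the permissive lists, against 64.7% and 71.1% in the control lists. Risen genes thus had a permissive share near that of genes not called and a lower control share. Open chromatin was at most starts in every list: 86.4% and 93.9% of risen genes in the permissive lists, against 89.4% and 81.9% in the control lists. A start with H3K27ac in both permissive lists and neither control list was found for 147 risen genes (26.3%), 13 fallen genes (1.83%) and 452 genes not called (5.14%). The reverse pattern was found for 1 risen gene, 60 fallen genes (8.43%) and 68 genes not called (0.774%). Atoh1, Gfi1, Barhl1, Chrna9, Myo7a, Dll1, Dll3, Srrm4 and Scn11a had the first pattern, and Fabp7, Frzb, Gjb6, Kcnj16, Col11a1 and Inhba the second. The lists differ in size, with 114572 and 72430 H3K27ac peaks in permissive cells, against 57839 and 55391 in control cells, and their depth is unknown. With only peaks of a deposited q under 0.01, the first pattern held for 9.12% of risen genes, 0.843% of fallen genes and 2.29% of genes not called, since permissive list 2 then kept 8224 peaks.

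**Figure D2:**
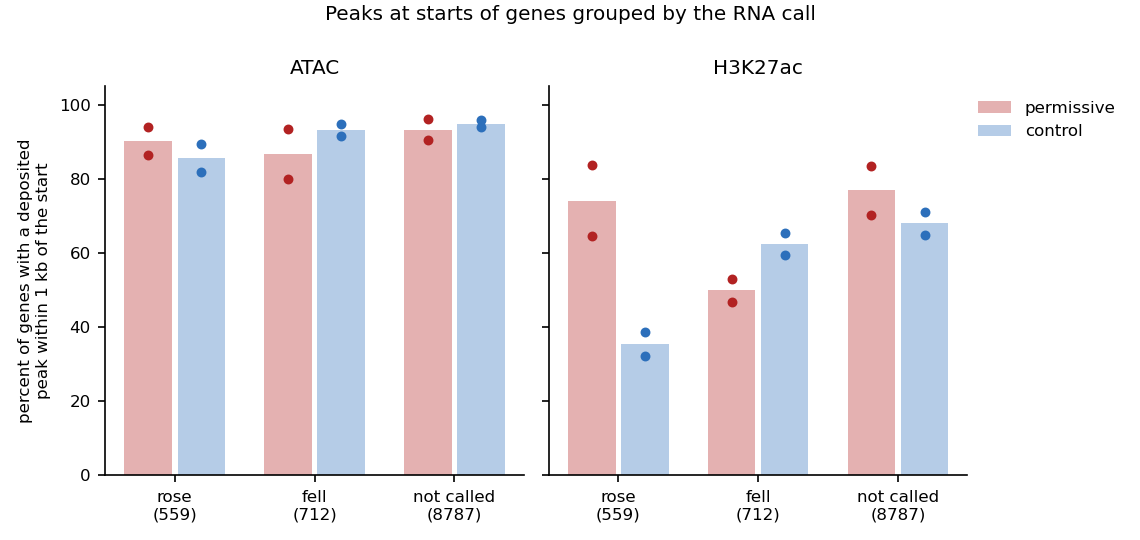
Percent of genes with a deposited ATAC (left) or H3K27ac (right) peak within 1 kb of the start, for genes that rose, fell or were not called at 48 h, with permissive left of control, where bars are means of 2 lists and points the lists. At risen genes the H3K27ac shares are 83.7% and 64.4% in permissive lists, against 32.2% and 38.6% in control lists, while ATAC shares lie at 81.9% or above throughout that class.

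The 250 bases before the first start listed for the gene are shown for 5 genes whose RNA is described here. These 5 were picked by hand and all hold a marked site, so they do not show how common such sites are. They come from RefSeq on GRCm38.p6 (the patch of mm10), each 5′ to 3′ on the strand of the gene. Capitals mark CAGCTG in the risen genes, an E-box, the kind of site that Atoh1 and related factors bind. In the fallen genes they mark TGGGAA, the core that Rbpj binds, or its reverse complement TTCCCA. The Barhl1 window lies at chr2:28916669-28916918 (minus strand), Chrna9 at chr5:65966874-65967123 (plus), Dll3 at chr7:28301786-28302035 (minus), Hes5 at chr4:154960673-154960922 (plus) and Frzb at chr2:80447397-80447646 (minus). The RefSeq span of the gene reaches further upstream for Barhl1 (28917984), Chrna9 (65934854) and Hes5 (154960626). Their windows therefore lie inside that span, before a start that is not the most upstream position.
Barhl1: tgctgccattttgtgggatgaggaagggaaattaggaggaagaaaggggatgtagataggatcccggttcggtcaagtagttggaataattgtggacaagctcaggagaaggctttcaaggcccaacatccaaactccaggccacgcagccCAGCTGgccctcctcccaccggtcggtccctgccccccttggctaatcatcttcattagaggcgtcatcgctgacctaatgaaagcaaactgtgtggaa
Chrna9: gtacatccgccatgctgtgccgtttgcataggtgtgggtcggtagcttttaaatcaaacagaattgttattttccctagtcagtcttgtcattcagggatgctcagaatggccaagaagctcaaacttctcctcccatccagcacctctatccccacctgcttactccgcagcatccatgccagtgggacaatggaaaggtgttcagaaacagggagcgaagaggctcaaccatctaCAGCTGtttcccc
Dll3: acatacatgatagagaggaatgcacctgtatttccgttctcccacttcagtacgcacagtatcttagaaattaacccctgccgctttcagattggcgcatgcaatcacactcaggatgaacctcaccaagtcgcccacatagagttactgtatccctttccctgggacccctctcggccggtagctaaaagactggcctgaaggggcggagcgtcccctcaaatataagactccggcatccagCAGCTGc
Hes5: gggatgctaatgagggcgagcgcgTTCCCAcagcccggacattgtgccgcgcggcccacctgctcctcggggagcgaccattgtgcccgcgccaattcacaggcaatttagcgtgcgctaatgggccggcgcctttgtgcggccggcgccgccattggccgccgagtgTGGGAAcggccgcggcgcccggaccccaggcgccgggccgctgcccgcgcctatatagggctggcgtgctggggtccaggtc
Frzb: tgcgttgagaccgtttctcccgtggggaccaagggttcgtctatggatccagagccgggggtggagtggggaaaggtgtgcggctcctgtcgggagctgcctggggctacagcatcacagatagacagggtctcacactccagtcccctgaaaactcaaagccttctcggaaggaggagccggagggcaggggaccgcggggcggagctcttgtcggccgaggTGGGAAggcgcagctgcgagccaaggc
Hes5 held 2 TGGGAA sites, 1 on each strand, and the other 4 promoters held 1 marked site each. Hes5 had an H3K27ac peak at its start in 1 permissive list and both control lists, and so had neither of the patterns above. Frzb also held CAGCTG, left in lower case, which overlaps no marked site. The E-box CAGCTG reads the same on both strands. It was found in 15% of 559 risen and 11.8% of 712 fallen genes with a listed promoter, and in 11.4% of 10058 such genes tested. CAGATG, another E-box, was found on either strand in 12.9% of risen, 9.55% of fallen and 9.6% of all such genes. TGGGAA on either strand was found in 21.1% of risen, 22.2% of fallen and 20.2% of all such genes. A match describes letters in this window and no binding was measured.

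Hair cell transcription factors rose in 11 of 26 tested cases and fell in 3 (median 1.30). Pou4f3, a POU-domain factor without which hair cells die, was at 2174, 2845 and 2268 CPM in permissive libraries, against 7.29 and 11.4 CPM in control libraries (8.02 ± 0.63, edgeR adjusted p = 3.17e-05). Barhl1, a homeobox factor of hair cells whose promoter is printed above, was at 195, 188 and 220 CPM and had no count in control libraries, at least 284-fold higher (edgeR adjusted p = 4.71e-05). Lhx3, a LIM homeobox factor, was at 241, 345 and 186 CPM, against 0 and 1.14 CPM (edgeR adjusted p = 8.67e-05). Every permissive library held at least 186 CPM of each of these factors, and no control library more than 11.4 CPM. Gfi1, a zinc finger repressor downstream of Pou4f3, was 535-fold higher, with a 95% counting interval of 148 to 4420. Hes6, a Hes-type factor of the hair cell lineage, was at 183, 318 and 264 CPM, against 5.8 and 7.99 CPM. Insm1, a factor of outer hair cells, was at 16.4 to 25 CPM with no count in control libraries, at least 29.0-fold higher. Lbh, Isl1 and Rorb fell, and 1 of them did so without control replicate 1. Isl1, a LIM homeobox factor, was at 61.1, 59.6 and 31.9 CPM, against 209 and 133 CPM (−1.75 ± 0.46, edgeR adjusted p = 0.0211), and lost its call without control replicate 1 (0.172) or permissive replicate 3 (0.0744). Eya1, an early factor of the sensory lineage, had a log2 fold change of −0.11 ± 0.56 (edgeR adjusted p = 0.936).

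Genes of mechanotransduction and the tip link rose in 12 of 16 tested cases (median 5.34). Cdh23, a cadherin of the tip link, was at 563, 312 and 240 CPM in permissive libraries, against 0.187 and 1.43 CPM in control libraries (8.93 ± 0.93, edgeR adjusted p = 8.67e-05). Its partner Pcdh15 was at 498, 227 and 370 CPM, against 63.4 and 30.2 CPM (2.96 ± 0.55, edgeR adjusted p = 0.00284). Lhfpl5, a subunit of the channel complex, was at 175, 587 and 296 CPM, against 0 and 0.571 CPM (edgeR adjusted p = 0.000236). Tip link partners thus started from unequal control levels, and both stood above control in every permissive library. Tomt, needed to bring the channel to the bundle, was at least 90.2-fold higher, and Cib2, a calcium-binding subunit, 56.1-fold higher. Tmc1, the pore subunit, was low, at 15.5, 20.8 and 2.43 CPM, against 0.187 and 0.856 CPM (4.63 ± 1.44, edgeR adjusted p = 0.0498), and was called in 8 of 15 alternatives.

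Bundle genes rose in 18 of 31 cases and fell in 2 (median 3.40), and 11 rose without control replicate 1. Myo7a, the bundle myosin used to recognise hair cells, was at 279, 374 and 305 CPM in permissive libraries, against 6.17 and 16.5 CPM in control libraries (4.82 ± 0.60, edgeR adjusted p = 0.000235). Espnl, an actin cross-linker, was at 671, 628 and 293 CPM, against 2.81 and 2 CPM (7.75 ± 0.66, edgeR adjusted p = 3.17e-05). Myo15, the myosin that carries cargo to stereocilia tips, was at 181, 216 and 157 CPM, against 0.561 and 0.285 CPM (8.59 ± 0.89, edgeR adjusted p = 8.67e-05). On each of these proteins all permissive libraries lay far above both control libraries. Myo3a had no count in control libraries and was at least 125-fold higher. Srgap2 and Pls1 were the members that fell. Srgap2 lost its call without either control replicate or without permissive replicate 2 or 3 (edgeR adjusted p from 0.0637 to 0.154), and Pls1 without control replicate 1, permissive replicate 2 or 3 or any nonpermissive replicate, and with the 5 compared libraries alone (from 0.0595 to 0.567). Pls1, an actin-bundling plastin, was at 223, 146 and 114 CPM in permissive libraries, against 692 and 251 CPM in control libraries.

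**Figure D3:**
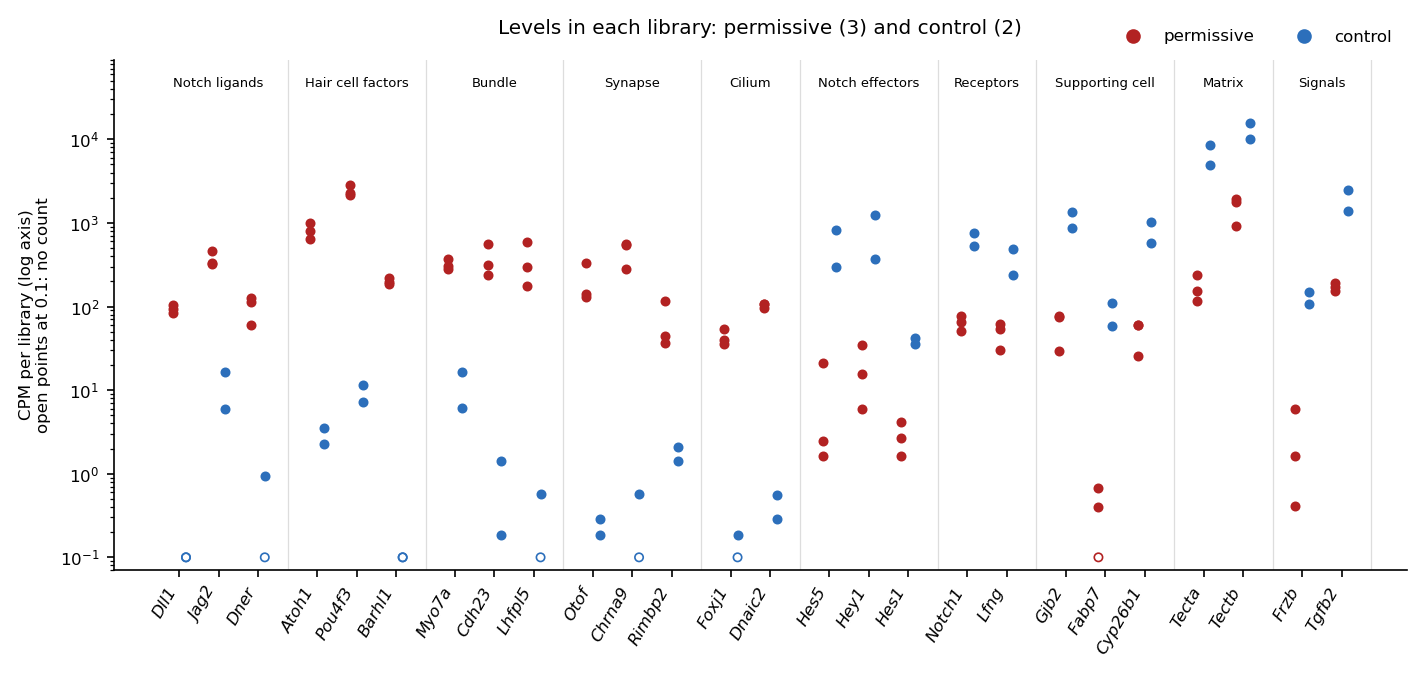
CPM in each library on a log axis for genes of the groups described here, permissive (red) left of control (blue), with open points at 0.1 where a library had no count. In every gene shown the permissive and control points do not overlap, and Atoh1 is at 635 to 1008 CPM in permissive and 2.28 to 3.55 CPM in control libraries.

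Ribbon synapse and efferent receptor genes rose in 11 of 16 cases (median 4.21). Otof, the calcium sensor of the hair cell synapse, was at 328, 141 and 129 CPM in permissive libraries, against 0.187 and 0.285 CPM in control libraries, 1001-fold higher with a 95% counting interval of 277 to 8267 (edgeR adjusted p = 0.000211). Chrna9 and Chrna10 form the receptor through which brainstem fibres inhibit hair cells. Chrna9, whose promoter is printed above, was at 279, 537 and 564 CPM, against 0 and 0.571 CPM, and Chrna10 was at 124, 154 and 97 CPM with no count in control libraries, at least 177-fold higher (edgeR adjusted p = 0.000339 and 3.74e-05). Both efferent subunits were therefore present in every permissive library and in at most 1 control library. Slc17a8, the glutamate transporter of inner hair cell vesicles, was at 34, 30.8 and 13.3 CPM, against 0.561 and 0.571 CPM (edgeR adjusted p = 0.00293). Ctbp2, which gives rise to the ribbon protein Ribeye, had a log2 fold change of 0.30 and was not called.

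Calcium buffers and pumps rose in 6 of 12 cases (median 3.65). Calb2, the buffer calretinin, was at 440, 517 and 399 CPM in permissive libraries, against 1.68 and 3.99 CPM in control libraries (7.34 ± 0.64, edgeR adjusted p = 3.63e-05). Pvalb, parvalbumin, was at 156, 240 and 92.6 CPM, against 0 and 0.285 CPM (edgeR adjusted p = 0.000261). Ocm, the buffer of mature outer hair cells, was at 0.413, 28.1 and 0.404 CPM, against 0.187 and 0.285 CPM, so that 1 permissive library carried nearly all of it (edgeR adjusted p = 0.18).

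Hair cell ion channels and transporters rose in 6 of 20 cases (median 1.88). Scn11a, a sodium channel, was at 381, 387 and 444 CPM in permissive libraries, against 0.187 and 0 CPM in control libraries (edgeR adjusted p = 1.78e-05). P2rx3, a receptor for extracellular ATP, was at 197, 198 and 243 CPM, against 0.748 and 0.285 CPM (8.51 ± 0.73, edgeR adjusted p = 3.17e-05). These channels had close levels in the 3 permissive libraries. Kcnmb2, a subunit of large-conductance potassium channels, was at least 154-fold higher. Slc26a5, the outer hair cell motor prestin, was at 2.48, 10.4 and 3.64 CPM with no count in control libraries, at least 7.76-fold higher (edgeR adjusted p = 0.0349), and was called in 9 of 15 alternatives. Among 42 potassium channel genes by symbol, 10 rose and 6 fell, and Kcnj10 and Kcnj16 of supporting cells were among those that fell.

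Presynaptic and secretory granule genes split, with 8 of 23 risen and 4 fallen (median 2.06), with 5 risen without control replicate 2 or permissive replicate 2 and 2 fallen without control replicate 1. Scg3, a granule protein, was at 93.5, 87 and 82.5 CPM in permissive libraries and had no count in control libraries, at least 124-fold higher (edgeR adjusted p = 0.000532). Syt7, a calcium sensor of vesicle release, was at 236, 185 and 243 CPM, against 3.74 and 1.14 CPM (6.43 ± 0.69, edgeR adjusted p = 9.82e-05). Sv2c, a vesicle protein, went the other way, at 4.75, 2.01 and 0 CPM in permissive libraries, against 161 and 66.8 CPM in control libraries (−5.53 ± 0.98, edgeR adjusted p = 0.00219). Rab3c, a vesicle GTPase, was at 4.54, 4.69 and 4.04 CPM, against 26.4 and 49.6 CPM (edgeR adjusted p = 0.00362). Vesicle genes of both directions separated the groups fully. The serotonin enzyme Tph1 and the somatostatin receptor Sstr2 rose beside them: Sstr2 was at 438, 504 and 607 CPM, against 2.24 and 3.71 CPM (7.44 ± 0.79, edgeR adjusted p = 9.37e-05), and Tph1 at 41.9, 27.4 and 76.8 CPM, against 0 and 0.571 CPM (edgeR adjusted p = 0.000652). Nos1, the neuronal nitric oxide synthase, fell to 0.206, 0.335 and 0.809 CPM in permissive libraries, against 111 and 90.2 CPM in control libraries (−7.83 ± 0.82, edgeR adjusted p = 9.37e-05).

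Genes of the motile cilium and axoneme rose in 15 of 26 cases (median 4.17, or 3.95 with members absent from control at their bound). Young hair cells carry a kinocilium beside the bundle. Foxj1, the regulator of motile cilium genes, was at 36.1, 39.5 and 53.8 CPM in permissive libraries, against 0.187 and 0 CPM in control libraries (edgeR adjusted p = 0.000558). Dnaic2, a dynein arm subunit, was at 106, 107 and 96.6 CPM, against 0.561 and 0.285 CPM (7.75 ± 0.85, edgeR adjusted p = 0.000106). Spag6l, a central pair protein, was at 65, 73.6 and 33.6 CPM, against 0.561 and 0 CPM (edgeR adjusted p = 0.000308). All 3 were above control in each library, and 7 of 21 genes named Cfap, for cilia and flagella, rose as well. Mak, a kinase of ciliated cells, was high in 1 library, at 27.7, 493 and 11.3 CPM, against 0.187 and 0 CPM (edgeR adjusted p = 0.003). This group depended on single controls: 7 members rose without control replicate 1 and 9 without control replicate 2.

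Splicing regulators of neurons and hair cells rose in 5 of 13 cases and fell in 2 (median 1.97). Srrm4, which drives microexon splicing and is needed in hair cells, was at 381, 350 and 210 CPM in permissive libraries, against 0.374 and 2.85 CPM in control libraries (7.68 ± 0.84, edgeR adjusted p = 0.000106). Its relative Srrm3 was at 47.7, 38.2 and 17 CPM, against 0 and 0.285 CPM (edgeR adjusted p = 0.00127). Rest, the repressor of neuronal genes that Srrm4 inactivates by splicing, was at 7.43, 5.36 and 17 CPM, against 47.9 and 53.6 CPM (−2.37 ± 0.54, edgeR adjusted p = 0.0104). Srrm4 and Rest moved in opposite directions with no overlap between groups. Without control replicate 1 or 2, 2 or 3 of the 5 rises were still called. Nnat, a small membrane protein of neurons chosen after its values were seen, was at 3291, 2375 and 1731 TPM (a level scaled for transcript length) in permissive libraries, against 65.4 and 52.1 TPM in control libraries (log2 fold change of counts 5.52, edgeR adjusted p = 8.67e-05).

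Several of the largest rises lay outside these groups. Tcerg1l, a relative of a transcription elongation factor, was at 179, 126 and 130 CPM in permissive libraries and had no count in control libraries, at least 204-fold higher (edgeR adjusted p = 0.000339). Cdhr1, a cadherin known from photoreceptors, was at 132, 77 and 101 CPM with no count in control libraries, at least 146-fold higher. Slc6a11, a GABA transporter, was at 97.4, 30.1 and 59 CPM with no count in control libraries, at least 87.8-fold higher. None of these 3 was seen in a control library. Tmem255b, a membrane protein, was at 481, 739 and 550 CPM, against 0 and 0.856 CPM, 1690-fold higher with a 95% counting interval of 578 to 8196.

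Of 20 pan-supporting and prosensory markers 14 fell (median −2.58), as did 9 of 18 inner phalangeal and border cell markers (median −2.20) and 9 of 19 Pillar and Deiters markers, where Cryab rose (median −1.11, and 5 fell without control replicate 1). Sox9, a factor of the prosensory domain, was at 80.9, 121 and 52.2 CPM in permissive libraries, against 669 and 429 CPM in control libraries (−2.69 ± 0.45, edgeR adjusted p = 0.00155). Sox2, the factor that establishes the prosensory domain, was at 52.4, 45.5 and 43.7 CPM, against 172 and 84.7 CPM, and did not pass (−1.44 ± 0.47, edgeR adjusted p = 0.0602, against 0.0403 by DESeq2 and 0.0428 without control replicate 2). Fabp7, a lipid carrier found in glia and inner phalangeal cells, was at 0, 0.669 and 0.404 CPM, against 109 and 58.5 CPM, 306-fold lower with a 95% counting interval of 104 to 1486 (edgeR adjusted p = 0.000217). Each of these genes, Sox2 included, was lower in every permissive library than in either control library. Trpm3, a cation channel, was at 45.8, 49.2 and 50.5 CPM in permissive libraries, against 440 and 328 CPM in control libraries (−2.98 ± 0.39, edgeR adjusted p = 0.000302). Ano1, a chloride channel of the postnatal cochlear epithelium, was at 138, 148 and 74 CPM, against 2098 and 1203 CPM (−3.78 ± 0.47, edgeR adjusted p = 0.000237). Cryab encodes a chaperone of Pillar and Deiters cells and was at 2088, 2510 and 914 CPM, against 480 and 283 CPM (2.27 ± 0.63, edgeR adjusted p = 0.0286), and lost its call without control replicate 1 or 2 or permissive replicate 2 (edgeR adjusted p = 0.0789, 0.226 and 0.0781). Of 18 greater ridge, Hensen and Claudius cell markers 5 fell and 3 rose (median −1.30), and 8 fell without permissive replicate 3. The 3 that rose were Calb1, a calcium buffer also found in hair cells, Stmn3, a regulator of microtubules, and Lmo3, a LIM-only cofactor. Calb1 was at 88.9, 275 and 208 CPM in permissive libraries, against 2.06 and 26.2 CPM in control libraries (edgeR adjusted p = 0.0337, and 0.147 without control replicate 1 and 0.0764 without permissive replicate 2). Lmo3 lost its call without control replicate 2 (edgeR adjusted p = 0.0849).

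Gap junction and potassium recycling genes fell in 7 of 17 cases (median −0.98). Gjb2 and Gjb6 encode the connexins that couple cochlear supporting cells. Gjb2 was at 29.3, 77.7 and 74.8 CPM in permissive libraries, against 1332 and 876 CPM in control libraries (−4.19 ± 0.50, edgeR adjusted p = 0.000176), and Gjb6 at 5.16, 21.4 and 26.7 CPM, against 298 and 300 CPM (−4.09 ± 0.58, edgeR adjusted p = 0.000525). Kcnj10, a potassium channel of supporting cells and stria, was at 14, 25.4 and 6.47 CPM, against 473 and 207 CPM (−4.47 ± 0.60, edgeR adjusted p = 0.000339). All 3 were lower in every permissive library than in either control library. Aqp4, a water channel, had no count in permissive libraries and was at 71.2 and 26 CPM in control libraries, at least 51.4-fold lower (edgeR adjusted p = 0.000532). Slc1a3, the glutamate transporter that clears glutamate around inner hair cells, was at 29.9, 46.5 and 59.4 CPM, against 350 and 316 CPM (−2.88 ± 0.45, edgeR adjusted p = 0.000969).

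Tectorial and otolithic matrix genes fell in 12 of 15 cases (median −3.30), and every tested member had a negative log2 fold change. Tecta, a core protein of the tectorial membrane, was at 117, 238 and 152 CPM in permissive libraries, against 8550 and 4884 CPM in control libraries (−5.31 ± 0.56, edgeR adjusted p = 9.37e-05). Tectb, its partner, was at 1764, 1927 and 919 CPM, against 15561 and 9942 CPM (−3.05 ± 0.45, edgeR adjusted p = 0.000627). On the TPM scale Tectb averaged 1063 in permissive and 9974 in control cells, and Tecta 108 and 5316. Tectb thus kept a larger part of its control level than Tecta. Col11a1, a fibrillar collagen of the tectorial membrane, was at 17.5, 22.1 and 34.4 CPM in permissive libraries, against 354 and 413 CPM in control libraries (−3.96 ± 0.48, edgeR adjusted p = 0.000202). By symbol, 14 of 32 collagen chains fell (median −2.62) and 10 of 19 integrin subunits fell (median −2.08).

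Basement membrane and integrin genes fell in 14 of 27 cases (median −1.93), 8 of them without control replicate 2. Itga6, a laminin receptor subunit, was at 212, 195 and 134 CPM in permissive libraries, against 1754 and 966 CPM in control libraries (−2.91 ± 0.44, edgeR adjusted p = 0.000684). Col4a4, a type IV collagen chain, was at 4.54, 5.69 and 1.21 CPM, against 123 and 58.2 CPM (−4.53 ± 0.64, edgeR adjusted p = 0.000518). The matrix chain and the receptor subunit were both lower in all permissive libraries than in either control library. Sparc, a secreted matrix protein, was at 531, 1104 and 974 CPM in permissive libraries, against 5255 and 6242 CPM in control libraries (−2.72 ± 0.44, edgeR adjusted p = 0.00109). Mesenchyme markers, which share matrix genes, summed to 231, 244 and 713 CPM in permissive libraries, against 686 and 2871 CPM in control libraries. Of 12 such markers 3 fell, 1 without control replicate 2 or permissive replicate 1 or 2, and 9 without permissive replicate 3. Of that sum, Col1a2 made up 44.1 and 1393 CPM in the control libraries, and the part of mesenchyme in the matrix results was not tested.

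Wnt pathway genes fell in 15 of 34 cases (median −1.85), among them ligands, receptors, secreted inhibitors and intracellular members. Frzb, a secreted Wnt inhibitor whose promoter is printed above, was at 0.413, 6.02 and 1.62 CPM in permissive libraries, against 108 and 151 CPM in control libraries (−5.62 ± 0.81, edgeR adjusted p = 0.000532). Sfrp1, another inhibitor, was at 219, 276 and 161 CPM, against 2045 and 1436 CPM (−2.99 ± 0.43, edgeR adjusted p = 0.000532). Daam2, an intracellular member, had no count in permissive libraries and was at 103 and 91.9 CPM in control libraries, at least 103-fold lower (edgeR adjusted p = 0.000114). Frzb and Daam2 were nearly absent from permissive libraries, whereas Sfrp1 kept part of its level. Wnt7a, a ligand of the cochlear epithelium, fell (−2.17 ± 0.44, edgeR adjusted p = 0.0048), as did Lgr6, a receptor related to Lgr5 (−4.31 ± 0.74, edgeR adjusted p = 0.00182).

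Of 31 TGF-beta, activin and BMP genes 6 fell (median −1.03). Tgfb2, a ligand, was at 193, 171 and 154 CPM in permissive libraries, against 2444 and 1400 CPM in control libraries (−3.47 ± 0.43, edgeR adjusted p = 0.000212). Fstl1, a secreted modulator of this family, was at 219, 582 and 369 CPM, against 4437 and 3924 CPM (−3.42 ± 0.47, edgeR adjusted p = 0.000372). Both were lower in every permissive library than in either control library. Yap and Tead targets fell in 7 of 18 cases (median −1.56), among them Ccn2, a matricellular protein, at 4.95, 15.7 and 9.3 CPM, against 153 and 215 CPM (−4.21 ± 0.55, edgeR adjusted p = 0.00029), and the coactivator Yap1 itself (−2.74 ± 0.43, edgeR adjusted p = 0.00103). Cyp26b1, the enzyme that degrades retinoic acid, was at 60, 60.6 and 25.9 CPM, against 1030 and 578 CPM (−4.04 ± 0.53, edgeR adjusted p = 0.000308). In the FGF list 5 of 24 genes fell (2 without control replicate 2 or permissive replicate 2) and 1 rose (median −1.63), with Fgf8, a ligand of inner hair cells, at 26.8, 26.8 and 2.02 CPM, against 0 and 0.285 CPM (edgeR adjusted p = 0.0109, and 0.0884 without control replicate 1). Egfr, whose ligand was in the medium, fell to 2.89, 4.69 and 0.404 CPM in permissive libraries, against 166 and 75.9 CPM in control libraries (−5.45 ± 0.70, edgeR adjusted p = 0.000277).

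Among cell cycle genes, the Cdk inhibitors moved apart. Cdkn1b, the Cdk inhibitor that marks quiescent supporting cells, was at 10.1, 3.01 and 6.47 CPM in permissive libraries, against 52.9 and 51.6 CPM in control libraries (−2.98 ± 0.62, edgeR adjusted p = 0.00611). Cdkn1c, a related inhibitor, was at 206, 231 and 327 CPM, against 12.2 and 39.9 CPM (3.29 ± 0.60, edgeR adjusted p = 0.00264). Neither inhibitor overlapped between the groups. Of 38 replication and mitosis genes 2 rose, Cdk1 and Mcm2, a share near the 5.72% of all genes, while 35 had a positive log2 fold change (median 1.12, against 0.06 over all genes) and 10 rose by DESeq2. The count of 2 was 1 without control replicate 1 or permissive replicate 3, 3 without permissive replicate 2 and 4 without permissive replicate 1. Cdk1, the mitotic kinase, was at 16.9, 140 and 34.8 CPM, against 5.61 and 3.71 CPM (edgeR adjusted p = 0.0103), and lost its call without control replicate 1 or 2 (edgeR adjusted p = 0.0547 and 0.0898). Mcm2, a helicase subunit, lost its call without control replicate 1 or 2 or permissive replicate 3 (edgeR adjusted p = 0.0665, 0.211 and 0.0624).

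Of 24 immediate early genes 9 fell (median −1.61, and 5 without control replicate 1), among them Nr4a3, a nuclear receptor, at 32, 19.7 and 4.85 CPM in permissive libraries, against 624 and 369 CPM in control libraries (−4.70 ± 0.70, edgeR adjusted p = 0.000682). Fos was at 243, 190 and 197 CPM, against 993 and 807 CPM (−2.10 ± 0.40, edgeR adjusted p = 0.00352). Both lay below the control libraries in all 3 permissive libraries. Of 29 cholesterol and fatty acid synthesis genes 8 rose (median 1.35), 3 without control replicate 1, 1 without control replicate 2 and 5 without permissive replicate 1 or 2. Fdft1, which commits the pathway to sterols, was at 288, 324 and 434 CPM, against 59.8 and 67.3 CPM (2.45 ± 0.47, edgeR adjusted p = 0.00334), and was called in all 15 alternatives. Of 45 nuclear genes of oxidative phosphorylation edgeR called 0, while 5 had an unadjusted p under 0.05, DESeq2 called 1, and all 45 had a positive log2 fold change (median 0.79), as did 52.2% of all genes. Large and small ribosomal subunit proteins gave 0 calls by edgeR of 47 and of 45 (medians 0.32 and 0.18), with an unadjusted p under 0.05 for 0 and 1 of them and DESeq2 calls for 0 and 1. Glycolysis and hypoxia genes fell in 5 of 29 cases (median −0.92), with 3 and 2 without control replicates 1 and 2.

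**Figure D4:**
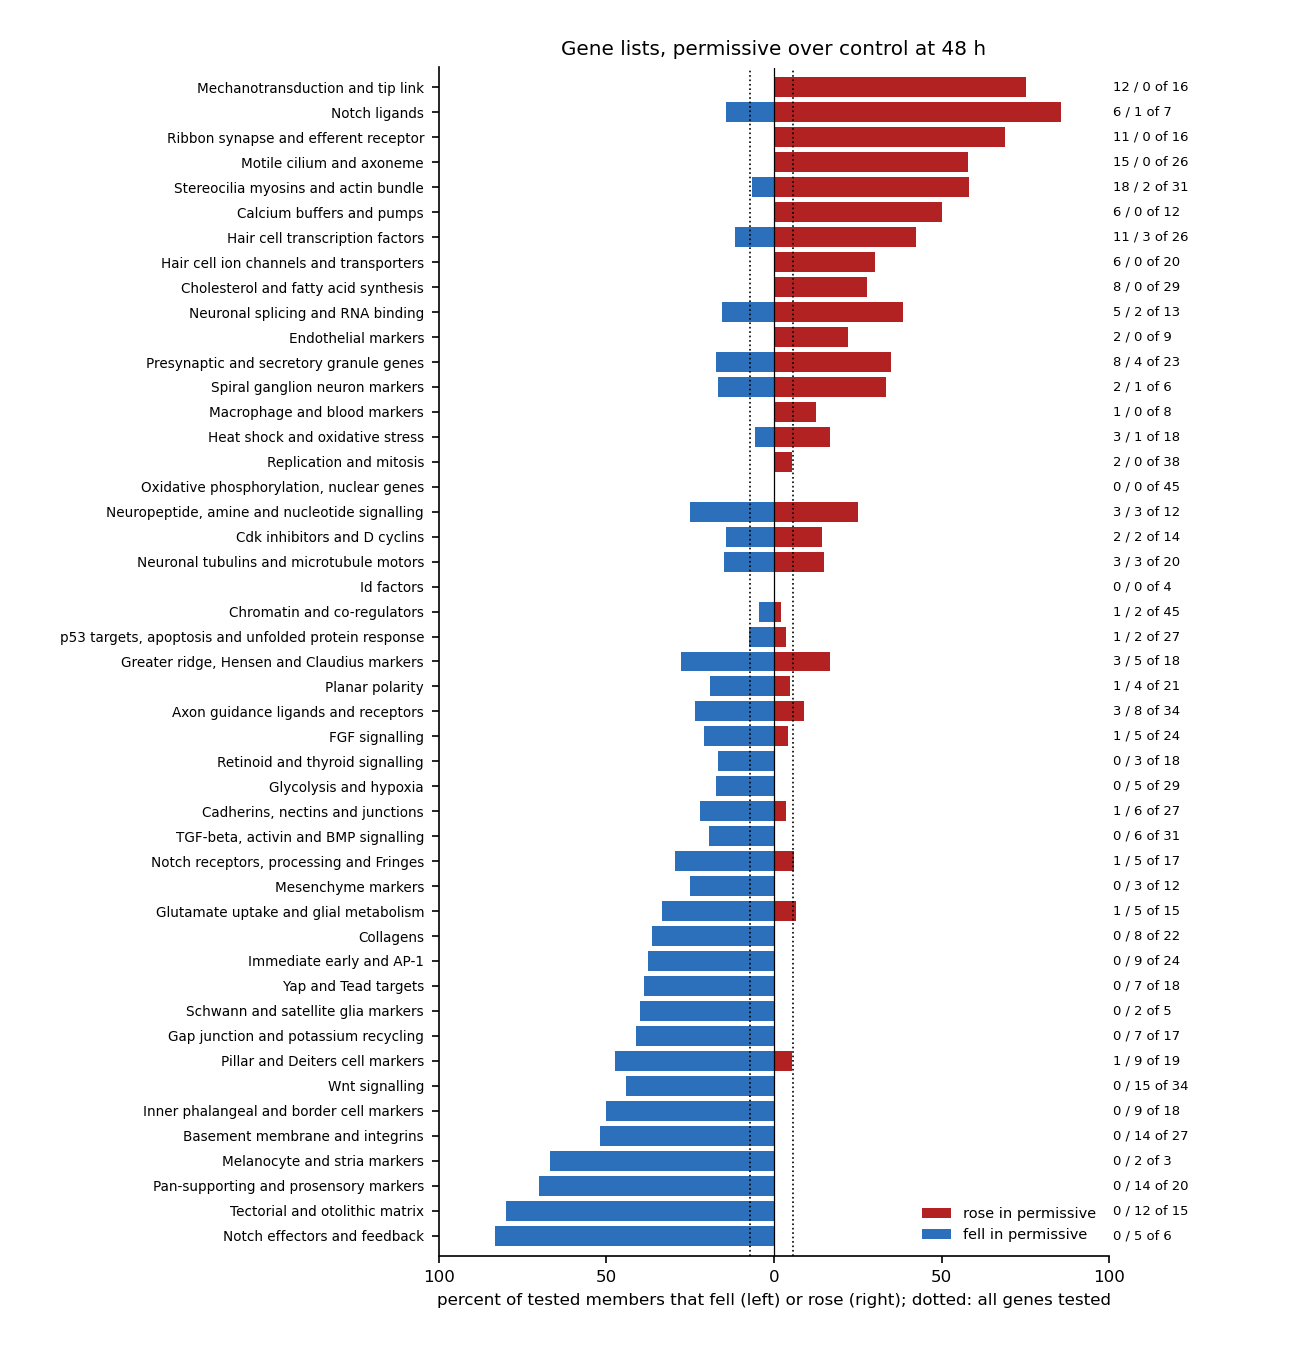
Percent of tested members of 47 gene lists that rose (right, red) or fell (left, blue) in permissive over control cells, with counts as rose / fell of tested beside each bar and dotted lines at 5.72% and 7.28% of all genes. Mechanotransduction (12 of 16 rose) and Notch ligands (6 of 7 rose) stand at the top, and tectorial matrix (12 of 15 fell) and Notch effectors (5 of 6 fell) at the bottom.

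Markers of other cell types were low and moved in both directions. Endothelial markers summed to 56.7, 83.7 and 160 CPM in permissive libraries, against 24.3 and 54.2 CPM in control libraries. All 9 tested had a positive log2 fold change (median 1.27), and 2 of 9 rose, 1 without permissive replicate 1 or 3. These calls leaned on both control libraries. Tek, below the count filter and so not tested, was at 0 in all permissive libraries. Macrophage and blood markers summed to 61.3, 113 and 258 CPM, against 44.5 and 85 CPM, and 1 of 8 rose, Laptm5 (not without control replicate 1 or permissive replicate 3, edgeR adjusted p = 0.146 and 0.0565), while Ptprc was at 0, 0 and 0.404 CPM, against 3.37 and 1.14 CPM. Schwann and satellite glia markers summed to 113, 286 and 258 CPM, against 974 and 524 CPM, and 2 of 5 fell, 1 without control replicate 1. Erbb3, which the cochlear epithelium also carries, made up 68.7, 64.9 and 101 CPM of the sums in permissive libraries, against 790 and 392 CPM in control libraries. Spiral ganglion neuron markers summed to 49.3, 51.5 and 129 CPM, against 27.1 and 93.6 CPM, and of 6 tested Nefl and Nefm, which encode neurofilaments, rose, while Prph and Th had no count in permissive libraries. Melanocyte and stria markers summed to 16.1, 25.8 and 9.7 CPM, against 483 and 219 CPM, nearly all of it Kcnj10. Dct, Tyr and Mlana had no count in any of the 5 libraries, and Pmel had no count in permissive libraries, against 10.5 and 9.99 CPM in control libraries. Erythrocyte markers summed to 0.206, 0 and 0 CPM, against 9.16 and 0.856 CPM. The part of these cell types in the results was not tested. S100a1, a calcium-binding protein and the most abundant nuclear transcript by TPM, varied from 1051 to 23768 CPM among permissive libraries and from 3416 to 15027 CPM among control libraries, a wider spread within the groups than between their means.

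The same genes were then read at 24 h, in libraries that share no sample with the comparison. Of 767 genes that rose at 48 h, 732 were tested at 24 h, and 484 (66.1%) rose with DAPT over DMSO, where 11.5% of all genes tested rose. Of 976 genes that fell, 940 were tested and 664 (70.6%) fell at 24 h, where 14.2% of all genes tested fell. The direction was shared by 717 (98%) of the risen and 873 (92.9%) of the fallen genes. Changes were smaller at 24 h, with median log2 fold changes of 0.97 and −0.85. The genes were chosen by their change at 48 h, which by itself favours smaller values at 24 h. The Spearman correlation of the fold changes was 0.65 across all 12809 genes tested at both times. It was 0.82 across the 1672 of them that changed at 48 h, a description over genes that are not independent. Without DAPT replicate 1, 2573 genes changed at 24 h in place of 3900. Sort, kit and time differ between these sets, so their sizes cannot be compared further.

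**Figure D5:**
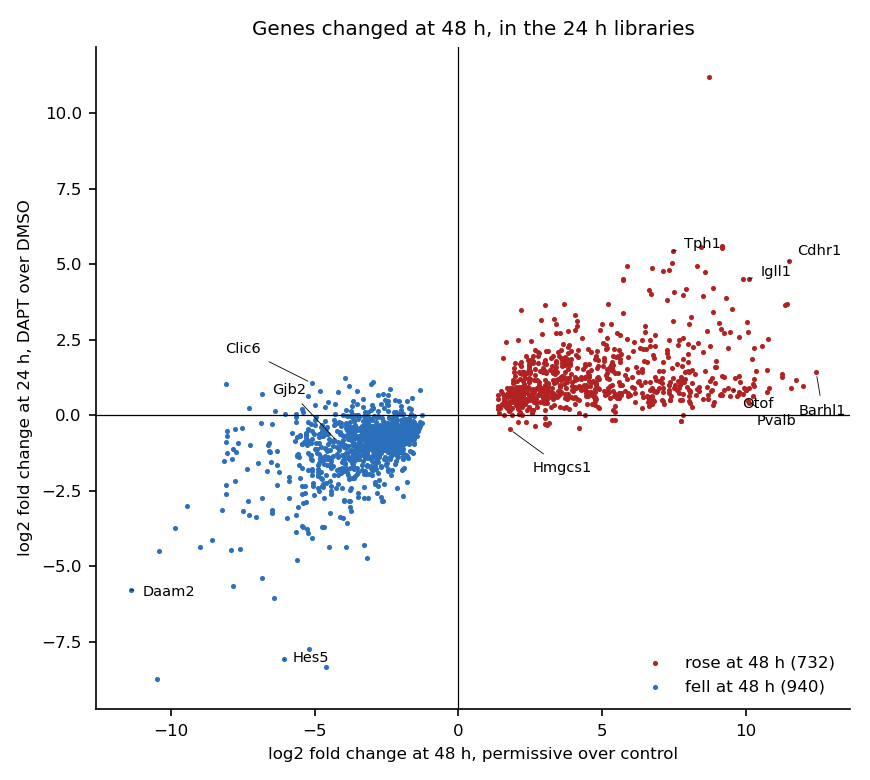
Log2 fold change at 24 h (DAPT over DMSO, vertical axis) against that at 48 h (permissive over control, horizontal axis) for genes changed at 48 h, with 732 risen genes in red and 940 fallen genes in blue. Most points lie in the lower left and upper right. Hes5 is lower at 24 h than at 48 h, Pvalb lies near 0 at 24 h, and Clic6 and Hmgcs1 have opposite signs.

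Fold changes at 24 h differed between groups of genes. Hes5 had a log2 fold change of −8.09 ± 0.31 at 24 h and −6.05 ± 0.96 at 48 h, and Dll3 already rose by 4.51 ± 0.15 at 24 h. Atoh1 rose by 3.25 ± 0.11 and Sstr2 by 5.05 ± 0.10 at 24 h. Genes of hair cell function were mixed at 24 h. Scn11a rose by 3.69 ± 0.19, Lhfpl5 by 1.45 ± 0.31 and Myo3a by 1.26 ± 0.35, and 9 of 18 mechanotransduction genes rose. Otof (0.83 ± 0.42, edgeR adjusted p = 0.183), Pvalb (0.47 ± 0.36, 0.388), Tomt (0.90 ± 0.41, 0.144) and Kcnmb2 (0.88 ± 0.29, 0.0571) did not pass. Several of these transcripts were already abundant without the drug at 24 h: Otof was at 1203, 1623 and 385 CPM in DAPT libraries, against 521, 706 and 574 CPM in DMSO libraries, and Tomt at 106, 137 and 33.1 CPM, against 44.3, 52.1 and 51.7 CPM. DAPT replicate 3 lay below all DMSO libraries in both genes, and the others above. Among the matrix genes, Tecta fell by 0.75 ± 0.12 at 24 h, and Tectb had 0.16 ± 0.15 (edgeR adjusted p = 0.463). Col27a1, a fibrillar collagen, had 0.16 ± 0.11 at 24 h (edgeR adjusted p = 0.313) and fell by 3.92 ± 0.72 at 48 h (edgeR adjusted p = 0.00284). Daam2 and Nos1 were already low at 24 h, with falls of 5.79 ± 0.20 and 5.67 ± 0.24. Notch effectors and Notch ligands had median log2 fold changes of −3.18 and 2.70 at 24 h, while mechanotransduction, motile cilium and tectorial matrix lists had 0.99, 0.61 and −0.61. The sterol list had medians of −0.18 at 24 h, where 7 of 29 members fell and 3 rose, and 1.35 at 48 h. No difference between the times was tested, because the fits are separate.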

How the data were processed

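RNA was measured in 8 libraries at 48 h (3 permissive, 2 control, 3 nonpermissive) and 6 at 24 h (3 DAPT, 3 DMSO). The deposited RNA tables hold RSEM expected counts and TPM per gene, which the authors made with STAR and RSEM on mm10, per the submitters' processing notes, with no versions given. ATAC and H3K27ac peak lists, called with MACS2 per the same notes, hold for each peak a deposited fold enrichment and −log10 p and q values that the authors' caller gave, 1 list per sample. UMI-tools is also named in those notes.

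Expected counts were rounded to whole numbers. edgeR 4.0.16 in R 4.3.3 (limma 3.58.1) was run with its default expression filter, TMM scaling and the quasi-likelihood test. All 8 libraries of 48 h shared a fit and so an estimate of the spread, and the contrast was permissive minus control. The 24 h libraries were fitted apart. Benjamini-Hochberg adjusted p under 0.05 over all genes tested was the threshold. The procedure was tested on simulated data. CPM is the rounded count over the library size after edgeR's expression filter and TMM scaling, which differs from the library total. Folds against a group with no count used a floor of 3 counts per library, and genes with 1 to 3 counts got the ratio of CPM with a 95% interval, which covers counting error only.

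Genes named are the 25 largest rises and falls with a mean of at least 50 CPM and no overlap, up to 5 risen and 5 fallen members per list, members against their list, and Atoh1, Sox2, Lfng, Cdkn1b and Myo7a. Espn, Tmc1, Pcdh15, Fgfr3, Lgr5, Rbpj, Nrarp, Hes6, Insm1, Eya1, Slc17a8, Ctbp2, Ocm, Slc26a5, Sox9, Col1a2, Wnt7a, Ptprc, Tek, Prph, Th, Dct, Tyr, Mlana, S100a1 and Nnat were named outside this rule, after their values were seen, as were the genes called in opposite directions at the 2 times. The members and lists were chosen with earlier results of these data known. Gene starts and promoters come from RefSeq on GRCm38.p6, and each promoter sequence is that of the first start listed for the gene. Alternatives were DESeq2 1.42.0, its size factors, no filter, at least 50 counts in 2 libraries, the 5 compared libraries alone, a replicate block and leaving out each library. Added after seeing the data were leaving out mitochondrially encoded genes and peaks with a q under 0.01. Some genes are not reported here.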

Additional observations from a re-analysis of the deposited data

Results flagged for a closer look

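Called genes moved in opposite directions at the 2 times in 15 cases, with no overlap between the groups at either time. Clic6, a chloride channel protein, was at 1.44, 4.69 and 19.4 CPM in permissive libraries, against 298 and 267 CPM in control libraries, a log2 fold change of −5.1 at 48 h, whereas DAPT over DMSO at 24 h gave 1.06. In the nonpermissive libraries Clic6 was at 742, 786 and 635 CPM. The other genes that fell at 48 h and rose at 24 h, with their 24 h log2 fold changes, were Prdm16, a transcriptional regulator (1.21), St3gal1, a sialyltransferase (1.09), Clmn (1.02), Nab2, a corepressor of Egr factors (0.95), Ntn4, a netrin (0.87), Padi2 (0.84), Tmem132d (0.81), Rasgrp1 (0.76), Bmp6, a BMP ligand (0.7), Tnfrsf19 (0.67), Tmem117 (0.65), Fam19a2 (0.51) and Car2, a carbonic anhydrase (0.49). Hmgcs1, an enzyme of sterol synthesis, had a log2 fold change of 1.78 at 48 h and −0.47 at 24 h. At 48 h Padi2 kept its call in 6 and Ntn4 in 7 of 15 alternatives, St3gal1 and Hmgcs1 in 11, and the other 11 genes in 12 or more. At 48 h, mean nonpermissive CPM lay above mean control CPM for Clic6, Prdm16, Ntn4, Padi2, Tmem132d, Rasgrp1, Tnfrsf19, Tmem117 and Car2. It lay below for St3gal1, Clmn, Nab2, Bmp6 and Fam19a2. Tnfrsf19, for example, averaged 343 against 149 CPM, and Clmn 24.3 against 67.1 CPM. The difference between the times was not tested, and the 24 h libraries also used another sort, without the Atoh1-GFP gate, and another kit. No group had 4 libraries or more, so no single library was tested for standing apart from its group.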

How the results depend on the processing

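Leaving out 1 library at a time gave 1066 to 1738 genes changed at 48 h in place of 1743, and 405 to 786 risen in place of 767. The low ends came without a control library, which leaves 1 control assumed to vary like the other groups, and the fallen count kept within 1.5 times of 976. At 24 h the same procedure gave 2573 to 4948 genes in place of 3900 and 1102 to 2379 risen in place of 1742, lowest without DAPT replicate 1. The share of risen genes with H3K27ac in both permissive lists and neither control list was 9.12% with a q under 0.01, in place of 26.3%, and that of genes not called was 2.29%, in place of 5.14%, since that limit left permissive list 2 with 8224 peaks. With the replicate number as a block the 48 h count was 2058. Permissive and control libraries share only 2 numbers, and the labels do not say that a number marks a shared source. The block was therefore not read as pairing, although replicate 1 of each group lay above 0 on the second principal component and all others below. Deviations of same-numbered libraries correlated at 0.489 and 0.176 over 8870 genes. With 2 controls the correlation with either control is the negative of that with the other. Other settings moved the 48 h count by less than 1.5 times, from 1544 with at least 50 counts in 2 libraries to 2353 with no filter, and DESeq2 gave 2330. Among 3484 comparisons of 233 named genes with an alternative, 186 lost the call, 3 gained it (all Sox2) and 0 reversed. With 2 control libraries and 2576473 to 4896374 counts per library, genes at a few CPM are limited by counting.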

Other observations

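Among adhesion and guidance genes falls outnumbered rises. Rises made up 4.76% of planar polarity, 8.82% of axon guidance and 3.7% of junction genes, against 5.72% of all genes tested. Falls made up 19%, 23.5% and 22.2%, against 7.28% of all genes tested. Of 21 planar polarity genes 4 fell and 1 rose at 48 h, and the 1 was Celsr3, an adhesion receptor, at 123, 37.8 and 36.4 CPM in permissive libraries, against 1.68 and 0.856 CPM in control libraries (log2 fold change 5.62, edgeR adjusted p = 0.00141). The falls numbered 1 without control replicate 1 or permissive replicate 2, and 2 without permissive replicate 3. Of 34 axon guidance genes 8 fell and 3 rose (median −0.70), with 4 falls without control replicate 1. Of 27 cadherins, nectins and junction genes 6 fell and 1 rose (median −0.02), with 1 fall without control replicate 1 and 3 without control replicate 2 or permissive replicate 2 or 3. Of 45 chromatin regulators 2 fell (0 to 3 with a permissive or control library left out) and 1 rose (median −0.06), against 13% of all genes tested that changed.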
